A study of Mus musculus with 14 samples.

Results

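The marrow of a mouse at postnatal day 8 (P8) was set against the marrow of a mouse aged 89 weeks in the leg bone sections of a spatial study of mouse blood-forming organs. A spot is a small capture area on the slide that can hold several cells of different types. Marrow spots were those inside the tissue outline that detected 1000 genes or more and in which 10 neutrophil-lineage genes (S100a8, S100a9, Ngp, Camp, Ltf, Lcn2, Mpo, Elane, Prtn3 and Retnlg) made up at least 0.5% of the unique molecular identifiers (UMIs, which count captured molecules). This rule gave 1249 spots, 317 at P8 and 932 at 89 weeks, of 17319 in-tissue spots in all 14 sections of the study. The study used probe-based Visium on formalin-fixed, paraffin-embedded tissue to ask how macrophages and erythroid cells are placed in fetal liver, bone marrow and spleen. Both marrow sections came from untreated wild-type C57BL/6 mice bought from Jackson, 1 section and 1 mouse per age. The P8 bone was embedded whole, without decalcification. The 89-week bone was frozen in gelatin and cut thick, the bone was separated from the marrow, and the marrow was then embedded in paraffin. Age, mouse, removal of bone, section preparation and matrix software therefore cannot be told apart, and with 1 section per age no difference has a replicate check and no p-value was computed. The intervals given cover counting error only.

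Marrow is the main blood-forming organ after birth. Stem and progenitor cells give rise there to neutrophils, which fill their granules in a fixed order as they mature, to red cells, to megakaryocytes and to B cells, and their surroundings are formed by stroma, vessels and macrophages, including those at the centre of erythroblastic islands. Shortly after birth the cavity is still enclosed by growing bone and cartilage, and in old mice long-lived antibody-secreting plasma cells are known to gather in marrow. In a spot, fewer cells of a type and less RNA per cell cannot be told apart.

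The marrow spots held 9534780 UMIs at P8 and 8434382 at 89 weeks, with medians per spot of 30918 UMIs and 6582 genes at P8 and of 8513 UMIs and 2978.5 genes at 89 weeks. All 932 spots of the 89-week section with at least 1000 genes passed the rule, against 317 of 1085 at P8. Outside the tissue outline, all 1030 spots with at least 1000 genes at 89 weeks and 592 of 1181 at P8 met the same share. Meeting it therefore did not by itself mark a spot as marrow tissue. The 10 rule genes took a median of 0.985% of a spot's UMIs at P8 (0.501 to 3.78) and 2.74% at 89 weeks (0.534 to 10.9). The 5 P8 spots just inside the threshold held 0.501 to 0.511% and the 5 just outside it 0.485 to 0.495%, while the lowest 89-week spot stood at 0.534% and none lay outside. The P8 spots also carried RNA of bone. Genes of the bone matrix, cartilage and skeletal muscle lists made up a median of 12.5% of their UMIs (2.16 to 42.1), against 0.0591% at 89 weeks (at most 8.58). The median was higher again in the 768 other P8 spots. Outside the tissue outline of the P8 section Col1a1 also stood at 56412 CPM, and at 53416 to 61702 CPM in every distance band. How much of the share was RNA spread between spots was not tested. No P8 marrow spot was under 2%, and 60 were under 5%. These 60 spots serve below as a second P8 value, called cleaner only for this lower share.

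**Figure D1:**
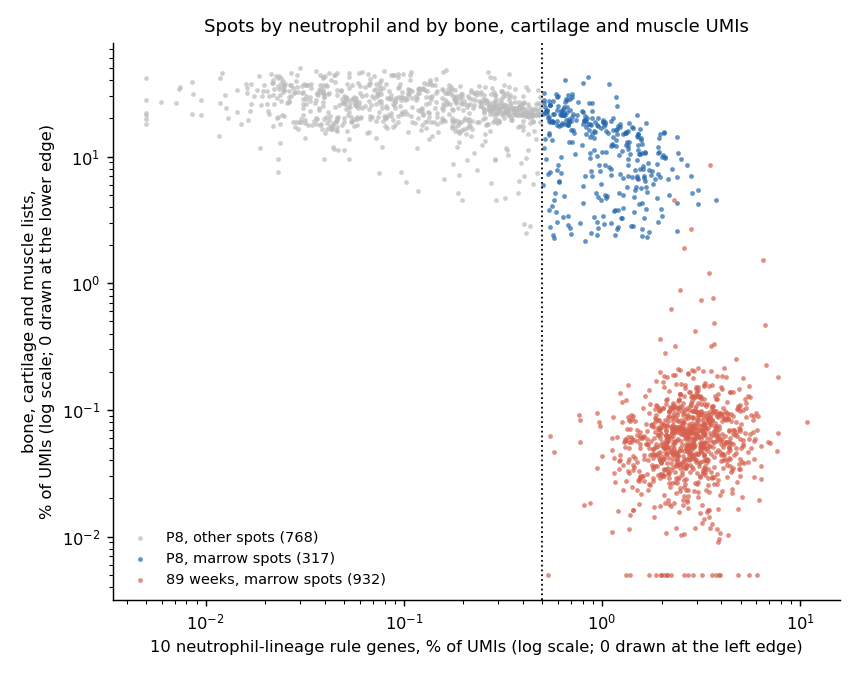
Each point is 1 spot with at least 1000 genes. The x axis gives the share of its UMIs on the 10 rule genes and the y axis the share on the bone, cartilage and muscle lists, both in percent on log scales, and the dotted line marks the 0.5% threshold. The 932 spots at 89 weeks (median 0.0591% on the y axis) lie below the 317 P8 marrow spots (median 12.5%), with a few 89-week spots reaching up to 8.58%.

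Some facts of the sections stand beside all that follows. The matrix headers name Cell Ranger 4 for P8 and Space Ranger 2.1.1 for 89 weeks. Across all 14 sections, 548 of 11754 genes (4.66%) did not overlap in CPM between the 4 sections with the older header and the later ones that list the gene, which are 10 for most genes and 2 for some. Of these, 277 (2.36%) stood higher in every later-header section and 271 (2.31%) in every older-header one. Outside the tissue outline, spots held 32.2% of all UMIs of the P8 section and 49.9% of those of the 89-week section. The study's legend gives the mouse of the cryosectioned femur as male, but the 4 Y-linked genes Ddx3y, Uty, Kdm5d and Eif2s3y held 0 counts there, while 7 of the 14 sections held 892 to 7141 counts of them. At P8, whose sex the labels do not give, they also held 0 counts. Xist, the fifth gene of the sex-linked list, held 0 counts in both marrows too, so the list does not tell the sex. In the other groups of the study, replicate sections of 1 group differed by at least 2-fold in 2.91% and 3.63% of genes in spleen and in 56.5% and 49.4% in fetal liver. The fetal liver pairs also differed in content. Spots passing the marrow rule numbered 622 and 2 in the wild-type pair and 289 and 0 in the knockout pair, against 34 and 39 and 1 and 3 in spleen. The part of this in the gene differences was not tested.

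Counts were summed over the marrow spots of each section, scaled by the total of the section (CPM) and compared as 89 weeks over P8 for the 11754 genes with at least 50 counts in total. A gene was called at a ratio of at least 2. Of the genes tested, 1461 (12.4%) were at least 2-fold higher at 89 weeks and 2593 (22.1%) at least 2-fold lower, and the median log2 ratio of all genes was -0.21. Both shares are the background to the count of each list below. The whole counting interval lay beyond 2-fold for 943 higher (8.02%) and 1829 lower genes (15.6%). Genes that were lower at 89 weeks were often genes of the surrounding P8 tissue. Of the lower genes, 80.2% had a higher CPM in the other P8 spots than in the P8 marrow spots, against 55.2% of all genes tested and 31.7% of the higher genes. Against the 60 cleaner P8 spots, 1728 genes (14.7%) were higher and 2146 (18.3%) lower.

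**Figure D2:**
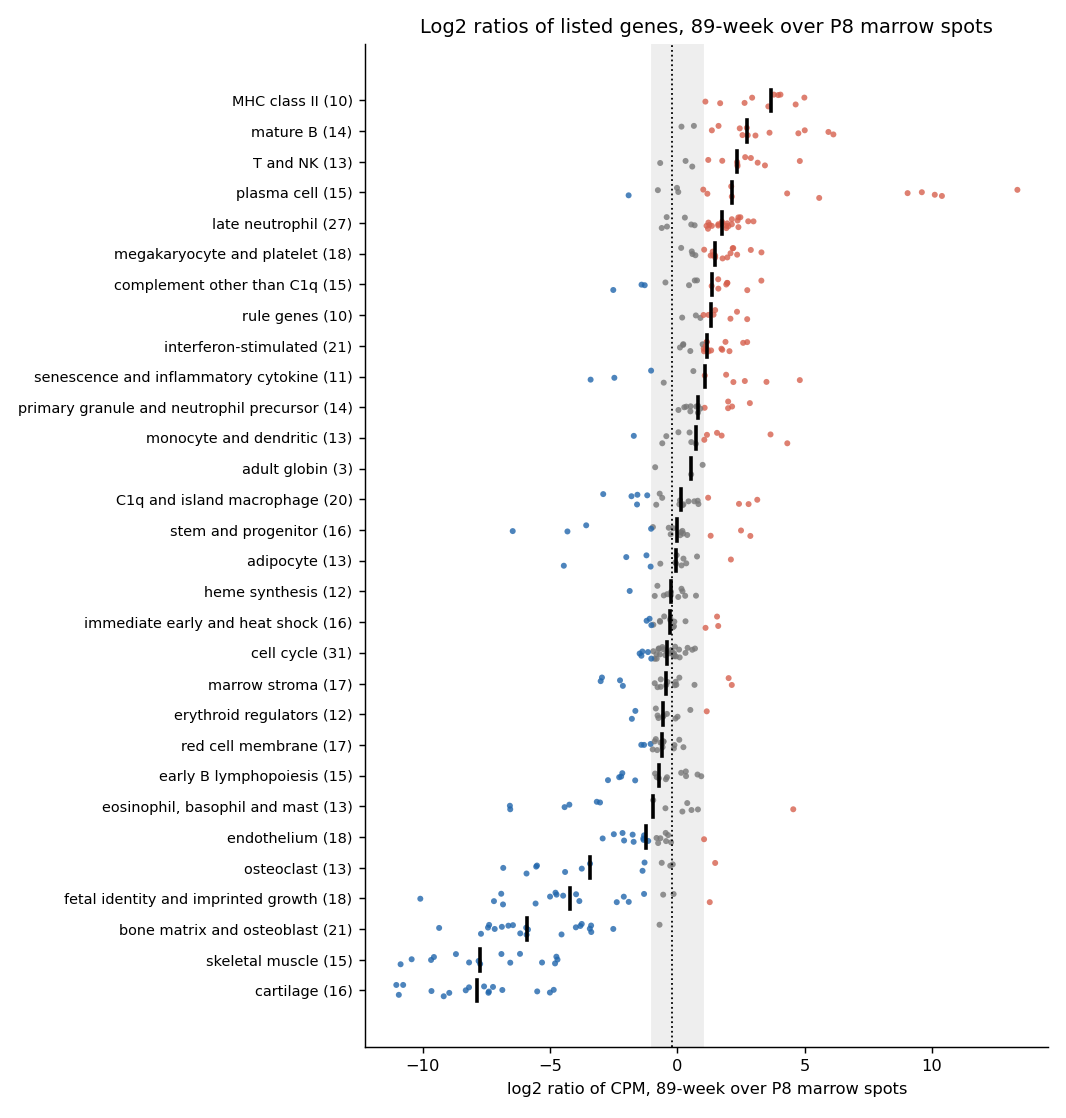
Each point is a gene with at least 50 counts in 1 of 30 marker lists (number of such genes in parentheses), placed by its log2 ratio of CPM, 89-week over P8 marrow spots. Black ticks are list medians, the grey band is the range under 2-fold, the dotted line is the median of all genes (-0.21), red points are at least 2-fold higher and blue points at least 2-fold lower at 89 weeks. Medians run from 3.68 for MHC class II to -7.89 for cartilage.

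Antibody genes had the highest ratios of 89 weeks over P8. Immunoglobulin genes, 23 features in all, took 0.0604% of UMIs at P8 and 8.33% at 89 weeks. Igkc, the constant part of the kappa light chain, stood at 100.1 CPM at P8 (95% Poisson interval 93.8 to 107) and at 52702 CPM at 89 weeks, a ratio of 527. The IgG2b heavy chain Ighg2b held 15 counts at P8 (1.57 CPM) and 138780 at 89 weeks (16454 CPM), a log2 ratio of 13.35 (12.63 to 14.19), which was 11.94 with 25 further P8 counts from a deprecated row of the same identifier. The IgA heavy chain Igha stood at 0.734 CPM at P8 and 570 CPM at 89 weeks, and Jchain, which joins IgA and IgM into multimers, at 0.42 CPM (4 counts) and 562 CPM. Ighg2c held 1 count at P8 and 976 at 89 weeks, with a log2 ratio of 10.11 whose counting interval runs from 7.63 to 15.41. By contrast Ighg1 held 0 and 2 counts.

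Of 15 plasma cell genes tested, 11 were higher, 1 was lower and 3 were under 2-fold, with a median log2 ratio of 2.14. Secretory-pathway members were among the higher genes: Derl3, a component of endoplasmic reticulum quality control, stood at 0.524 CPM at P8 and 24.9 CPM at 89 weeks, and Mzb1, a chaperone that aids antibody assembly, at 48.5 and 210 CPM. Xbp1, the transcription factor of the secretory programme, was near the threshold with a log2 ratio of 1.02, against 1.60 over the cleaner P8 spots. Sdc1 (CD138) had nearly equal levels of 88.0 and 87.0 CPM, but its level in the other P8 spots was 189.5 CPM, and its log2 ratio over the cleaner P8 spots was 1.14. Prdm1, which drives plasma cell differentiation, stood at 15.7 and 9.25 CPM. The single lower gene was Fkbp11, at 49.2 CPM at P8, 103 CPM in the other P8 spots and 13.0 CPM at 89 weeks. The plasma cell list as a whole summed to 626 CPM at P8 and to 71328 CPM at 89 weeks, most of it immunoglobulin.

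The antibody signal was spread over the whole 89-week section. Igkc was detected in all 932 spots, with a median of 36964 CPM per spot and a 5th to 95th percentile range of 8158 to 119190 CPM. At P8 the highest of the 317 marrow spots reached 596 CPM and 67 spots held no count. Outside the tissue outline of the 89-week section Igkc also stood at 46197 CPM, and the part of RNA spread between spots in these values was not tested. The genes differed in how patchy they were within the 89-week section. The richest 46 spots held 20.1% of Igkc counts, 29.6% of Ighg2b, 28.7% of Ighm, 41.5% of Igha and 76.1% of Igkv19-93, a single kappa variable gene. Igkv19-93 stood at 2.41 CPM at P8 and 1049 CPM at 89 weeks and reached 34893 CPM in 1 spot, while 364 of 932 spots held none.

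**Figure D3:**
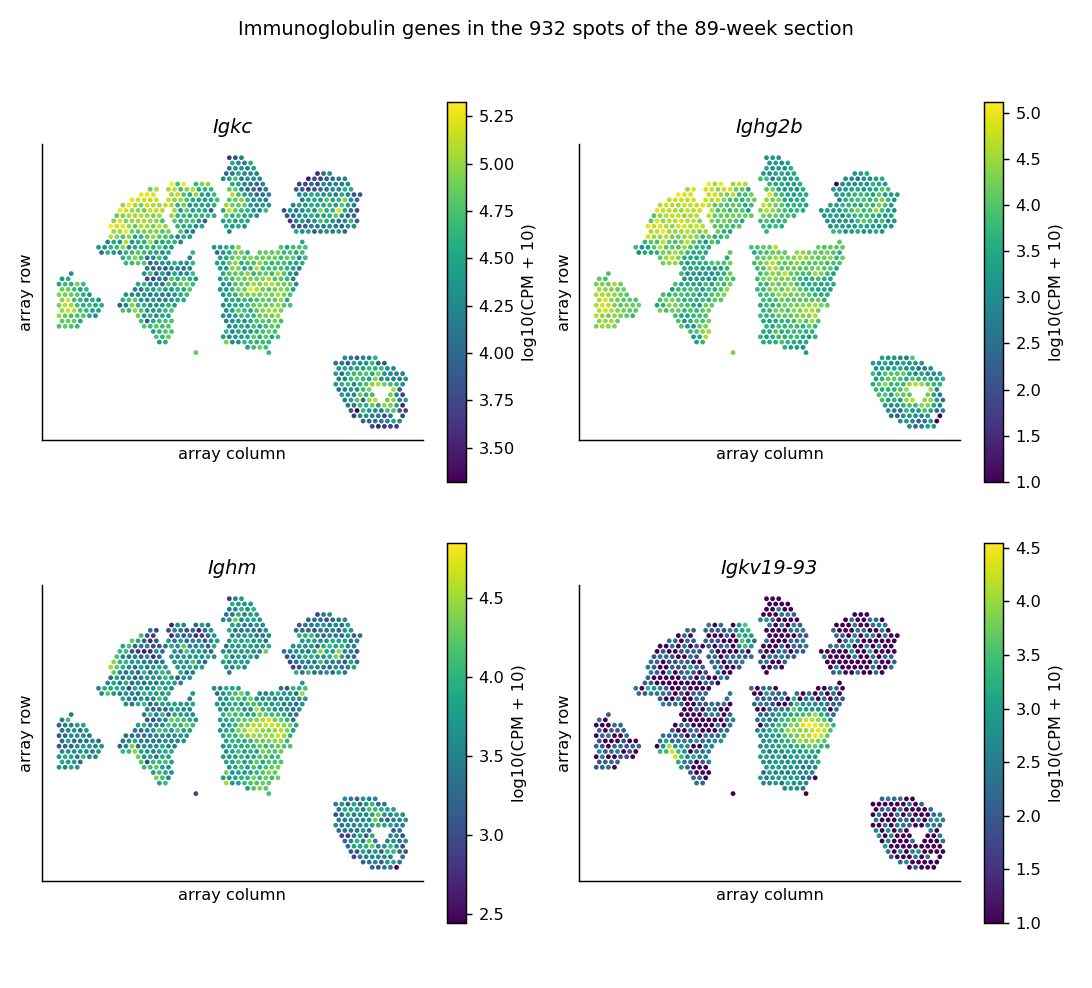
The 932 spots of the 89-week section, which lie in several separate pieces of marrow, at their array positions, coloured by log10 of CPM plus 10 for Igkc, Ighg2b, Ighm and Igkv19-93, each panel with its own colour scale. Igkc is present in all spots, whereas Igkv19-93 is concentrated in a few patches, its richest 46 spots holding 76.1% of its counts.

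Mature B cell genes were mostly higher at 89 weeks and genes of early B lymphopoiesis were not. Of 14 mature B cell genes tested, 12 were higher at 89 weeks and none lower (median log2 ratio 2.74), whereas of 15 genes of early B lymphopoiesis none was higher and 5 were lower (median -0.73, and 0.04 when all in-tissue P8 spots were used). Of all genes tested 22.1% were lower, and over the cleaner P8 spots 1 of the 15 was higher and 5 lower, with a median of -0.43. Ms4a1 (CD20) stood at 10.8 CPM at P8 and 90.5 CPM at 89 weeks. The complement receptor Cr2 held 2 counts at P8 and 108 at 89 weeks, a log2 ratio of 5.93 that was 0.85 with spots thinned to 2000 UMIs, and the low-affinity IgE receptor Fcer2a held 3 and 85 counts. Fcmr, the Fc receptor for IgM, stood at 0.524 and 36.6 CPM (log2 ratio 6.13), and with its deprecated row at 3.46 and 36.6 CPM (3.40). Ighm, the IgM heavy chain, stood at 303 and 8158 CPM and gave 68808 of the 75645 counts of the mature B cell list at 89 weeks. Whether mature B cells or plasma cells held it was not tested. On the early side, the surrogate light chain gene Igll1 of pre-B cells stood at 67.4 CPM at P8 and 10.2 CPM at 89 weeks, and its relative Vpreb3 had a log2 ratio of -2.16. The polymerase Dntt, which adds bases at immunoglobulin joints, stood at 12.1 and 2.61 CPM, and the transcription factor Lef1 at 27.2 and 5.57 CPM. Genes used throughout the lineage differed less: Cd79a, a signalling chain of the B cell receptor, stood at 175 and 303 CPM and the lineage factor Pax5 at 30.6 and 38.8 CPM.

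Ratios taken within a section do not depend on the total. Igll1 and Vpreb3 together made 0.871 counts for each Cd79a count at P8 (0.811 to 0.935) and 0.0963 at 89 weeks (0.0842 to 0.110). Ms4a1 made 0.0617 counts per Cd79a count at P8 and 0.299 at 89 weeks. Igkc made 0.572 counts per Cd79a count at P8 and 174 at 89 weeks. Ighm exceeded Igkc at P8, with 3.03 counts for each Igkc count, and was below it at 89 weeks, with 0.155. In the 60 cleaner P8 spots these ratios were 0.899, 0.0719, 0.562 and 3.03. The only other adult marrow in the series, an EDTA-decalcified section of a 6-month mouse, had 15 passing spots and 37167 UMIs, where Igkc made 22.3 counts per Cd79a count (134 counts over 6) and Ighm 0.127 per Igkc count.

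MHC class II genes, which present peptides to CD4 T cells and are expressed by B cells, dendritic cells and macrophages, were higher at 89 weeks in 10 of 10 members tested, with a median log2 ratio of 3.68. Their summed level was 179 CPM at P8 and 3792 CPM at 89 weeks. Cd74, the invariant chain, stood at 90.2 and 2860 CPM (log2 ratio 4.99). The classical chains H2-Aa, H2-Ab1 and H2-Eb1 stood at 12.5, 19.7 and 7.87 CPM at P8 and at 194, 234 and 197 CPM at 89 weeks. Ciita, the transactivator that switches these genes on, stood at 1.99 CPM (19 counts) and 33.0 CPM. The peptide-loading genes spanned the rest of the range, with H2-DMa at 19.2 and 41.1 CPM (log2 ratio 1.10) at the low end. Cd74 was detected in all but 1 of the 932 spots at 89 weeks, with a 5th percentile of 1305 CPM, above the highest P8 spot at 454 CPM. Outside the tissue outline of that section Cd74 stood at 2804 CPM, near its level in the tissue, and at 2599.9 to 3078 CPM in every distance band. Against the 60 cleaner P8 spots, 9 of the 10 members were higher, H2-Oa standing at a log2 ratio of 0.81. Counts of the list per Cd79a count were 1.02 at P8 and 12.5 at 89 weeks.

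MHC class II promoters are known for a conserved upstream module whose Y box, bound by NF-Y, holds the letters ATTGG. Because 10 of 10 members were higher together, their promoters were read from 250 bases before to 50 after the start. The starts came from the RefSeq table (build GRCm38.p6), and 7 genes of the list were searched. H2-Ab1 and Ciita had no entry there. Cd74, the member with the highest ratio, was left out of the search by choice, so the count below does not cover it. ATTGG, searched on both strands, was present in 7 of 7, against 41.1% of 27025 gene symbols, a symbol counting if any of its listed starts had a match. H2-DMa has 2 listed starts, 1 with no match and 1 with its match 198 bases upstream. A match of so few letters is a description of the window, not a site. The windows of the 4 searched genes with the highest ratios (log2 2.94 to 4.64) are shown 5′ to 3′ on the strand of the gene. They lie at chr17:34305802-34305866 on the plus strand (H2-Eb1, match starting 35 bases before the start), chr17:34287837-34287901 on the minus strand (H2-Aa, match starting 48 bases before the start), chr17:34145129-34145193 on the plus strand (H2-DMb2, match starting 90 bases before the start) and chr17:34238818-34238882 on the plus strand (H2-Ob, match starting 57 bases before the start). Capitals mark 1 match in each window, the one nearest the start. In H2-Eb1 that match is on the opposite strand, so that its reverse complement is in capitals, and a same-strand match in the same window is left in lower case.
H2-Eb1: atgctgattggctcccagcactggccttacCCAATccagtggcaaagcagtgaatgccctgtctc
H2-Aa: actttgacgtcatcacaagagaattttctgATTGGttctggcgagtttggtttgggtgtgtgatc
H2-DMb2: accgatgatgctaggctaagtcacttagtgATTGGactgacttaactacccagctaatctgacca
H2-Ob: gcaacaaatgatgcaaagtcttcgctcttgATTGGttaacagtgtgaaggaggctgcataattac

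Other immune genes were mostly higher as well. Of 13 T and NK cell genes tested, 10 were higher and none lower (median log2 ratio 2.36), at low levels: Cd3e, part of the T cell receptor complex, stood at 1.57 CPM at P8 and 14.0 CPM at 89 weeks, and the receptor constant region Trbc2 at 5.14 and 55.7 CPM. The chemokine Ccl5, made by activated and memory T cells, stood at 6.08 and 170 CPM. The cytotoxic granule gene Gzma stood the other way, at 13.6 and 8.54 CPM. Of 21 interferon-stimulated genes tested, 16 were higher and none lower (median 1.15). The members with the highest levels at P8 did not reach 2-fold: Isg15 stood at 107 and 115 CPM and Rsad2 at 99.5 and 116 CPM, and their log2 ratios over the cleaner P8 spots were -0.42 and -0.33. Zbp1 stood at 4.72 and 31.5 CPM and Oasl2 at 7.03 and 42.1 CPM. Among inflammatory and senescence genes, 6 of 11 were higher and 3 lower. The interferon-gamma chemokine Cxcl9 held 9 counts at P8 and 90 at 89 weeks. The cell cycle inhibitors Cdkn1a (p21) and Cdkn2b stood lower at 89 weeks, at 85.1 and 15.3 CPM and at 5.03 and 0.474 CPM, and both were higher in the other P8 spots (215 and 7.72 CPM) than in the P8 marrow spots. Cdkn2a held 26 and 8 counts and was not tested.

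Monocyte and dendritic cell genes were higher in 6 of 13 and lower in 1. Ly6c2, a marker of classical monocytes, stood at 58.3 and 736 CPM, but this gene did not overlap between matrix headers (1.77 to 52.6 CPM in the 4 older and 161 to 736 CPM in the 2 later sections that list it, over all spots with at least 1000 genes). Ccr2, the receptor that brings monocytes out of marrow, stood at 39.0 and 115 CPM, and Clec9a, a marker of cross-presenting dendritic cells, at 0.839 and 16.7 CPM. Csf1r, the receptor of macrophages and osteoclasts, was the lower gene, at 136 and 41.5 CPM. Of 15 complement genes other than C1q, 8 were higher and 3 lower. C3 stood at 82.4 and 210 CPM, and C1ra had a log2 ratio of 3.30. Slpi, a secreted protease inhibitor outside the lists, stood at 63.8 CPM at P8 and 1982 CPM at 89 weeks.

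Neutrophil genes chose the spots, so their values are a description. All 10 rule genes stood higher at 89 weeks, 7 of them by at least 2-fold, with a median log2 ratio of 1.32. This median depended on the spots used. It was 0.49 with a rule share of at least 2% and 2.31 with all in-tissue spots of at least 1000 genes. At 2%, Prtn3 (-0.58) and S100a9 (-0.05) took the other sign, and the other rule genes stayed higher. In the main comparison the 10 genes did not differ evenly. Among genes of late granules and mature cells, log2 ratios were 2.08 for Camp (1465 and 6212 CPM), 2.34 for Ltf (446 and 2261 CPM) and 2.74 for Retnlg (59.7 and 399 CPM). Enzymes of the primary granules, made first, had 1.48 for Mpo (448 and 1254 CPM), 1.03 for Elane (540.1 and 1100.5 CPM) and 0.19 for Prtn3 (550 and 626 CPM). The remaining rule genes, Ngp (1.42), S100a8 (1.22), Lcn2 (0.90) and S100a9 (0.73), lay within the range of these enzymes, so the order did not hold for every late gene. Camp, Ltf, Ngp and Lcn2 together made 1.87 counts for each count of Mpo, Elane, Prtn3 and Ctsg at P8 (1.84 to 1.91), 3.57 at 89 weeks (3.53 to 3.62) and 7.61 in the EDTA-decalcified spots (388 counts over 51). In the 60 cleaner P8 spots the ratio was 1.93. Retnlg, Cxcr2, Mmp9 and Cd177 per count of Camp, Ltf, Ngp and Lcn2 went the other way. They made 0.439 counts at P8, 0.249 in the cleaner P8 spots and 0.149 at 89 weeks. Mmp9 gave 13181 of their 14472 counts at P8. Among 27 late neutrophil genes not in the rule, 21 were higher and none lower (median 1.75), among them the surface protein Cd177 (53.3 and 423 CPM) and the granule protein Wfdc21 (137 and 945 CPM). Mmp9 ran against its list at 1382 and 903 CPM. Osteoclasts also make Mmp9, its level in the other P8 spots was 1988 CPM, and over the cleaner P8 spots its log2 ratio was 0.42. Of 14 primary granule and precursor genes, 5 were higher, none lower and 9 under 2-fold. Among the 5 was Cd63, whose log2 ratio of 2.15 became -1.16 with its deprecated row joined. The list median was 0.81, and 0.78 with such rows joined.

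One family of neutrophil-expressed genes stood the other way. A search was made after values were seen. It took genes with at least 100 CPM at P8 that were at least 2-fold richer in P8 marrow than in the other P8 spots. They also had to be at least 2-fold lower at 89 weeks, which gave 33 features of the 11754 tested. These held deprecated rows, the osteocalcin gene Bglap and histone genes such as Hist1h2bl (15926 and 5347 CPM). They also held erythroid genes such as Klf1 and Rhag and cell cycle genes such as Tyms. Among the 33 was the stefin A family of cysteine protease inhibitors: Stfa1 stood at 791 CPM at P8 and 2.49 CPM at 89 weeks (21 counts), Stfa3 at 231 and 1.19 CPM, Csta2 at 146 and 0.474 CPM, Cstdc6 at 341 and 4.15 CPM, and Cstdc4 at 854 and 33.4 CPM. Their ratios over the cleaner P8 spots were as large, with a log2 ratio of -8.36 for Stfa1 against -8.31 over all P8 marrow spots. Over all spots with at least 1000 genes, Stfa1 was at most 2.49 CPM in the 2 later-header sections that list it and 0.196 to 401 CPM in the 4 with the older header, P8 being the highest. Stfa3, listed in all 10 later-header sections, reached 106 CPM in 1 of them. The family lies as near-identical copies, so probes may not tell its members apart and single values are uncertain. The part of the probe set or software in these values was not tested.

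Of 13 eosinophil, basophil and mast cell genes 6 were lower and 1 higher at 89 weeks. Their median log2 ratio was -0.95 and ran from -3.04 to 0.48 over 21 alternatives, with the other sign in 2 of them. The granule protein Prg2 stood at 317 and 35.3 CPM, the eosinophil peroxidase Epx at 35.8 and 1.66 CPM, and Ear6 at 22.7 and 0.237 CPM (2 counts). Prg2 was patchy at P8, the richest 15 spots holding 48.9% of its counts, and reached 6948 CPM in 1 spot. It was densest where bone was least, at 557 CPM in spots under 5% bone, cartilage and muscle and 109.8 CPM in spots over 20%. The mast cell protease Cma1 stood at 11.2 and 0.119 CPM (1 count), with 26.4 CPM in the other P8 spots. The basophil protease Mcpt8 stood at 38.6 and 56.7 CPM, and Fcer1a, the IgE receptor chain of basophils and mast cells, at 1.15 and 27.0 CPM.

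Adult globin genes took 11.7% of UMIs at P8 and 10.8% at 89 weeks, and stood at 168390 CPM in the cleaner P8 spots against 107944 CPM at 89 weeks. Red cell membrane genes took 0.506% and 0.322% of UMIs, and erythroid regulators 0.183% and 0.135%. The single globin genes stood in opposite order. Hbb-bs stood at 84412 CPM at P8 and 46118 CPM at 89 weeks, and Hba-a2 at 25821 and 51342 CPM, so that Hbb-bs made 3.27 counts per Hba-a2 count at P8 and 0.898 at 89 weeks. This ratio followed the matrix header throughout the series, at 2.15 to 3.20 in the 4 sections with the older header and 0.550 to 0.898 in the 10 with later ones, whatever the tissue. Hba-a1 held 0 counts in both sections. Embryonic globins held 28 counts at P8 and 7 at 89 weeks over 4 genes, so that none was tested.

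Genes of heme synthesis were mostly under 2-fold, with none higher and 1 lower of 12 and a median log2 ratio of -0.25. Alas2, the first enzyme of the pathway in red cells, stood at 848 and 1406 CPM, Tfrc, the transferrin receptor that brings in iron, at 734 and 426 CPM, and the mitochondrial glycine carrier Slc25a38, the lower gene, at 92.5 and 25.3 CPM. Of 17 red cell membrane genes none was higher and 3 were lower (median -0.59): the anion exchanger Slc4a1 at 512 and 247 CPM, the ammonia channel Rhag at 349 and 141 CPM, and the water channel Aqp1 at 893 and 334 CPM. Among 12 erythroid regulators, Klf1 stood at 137 and 43.7 CPM, Bcl11a, which silences embryonic globin, at 46.3 and 13.4 CPM, and Gata1 at 148 and 149 CPM. Klf1 made 0.162 counts per Alas2 count at P8 (0.153 to 0.172) and 0.0311 at 89 weeks (0.0280 to 0.0345), and 0.151 in the cleaner P8 spots. In all sections this ratio was 0.133 to 0.272 under the older header and at most 0.111 under later ones. These medians depended on which P8 spots were used: over the cleaner P8 spots the medians were -0.78 for heme synthesis, -1.07 for the membrane genes, with 13 of 17 lower, and -0.91 for the regulators, whereas with all 1085 P8 spots they were 0.53, 0.03 and 0.14.

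**Figure D4:**
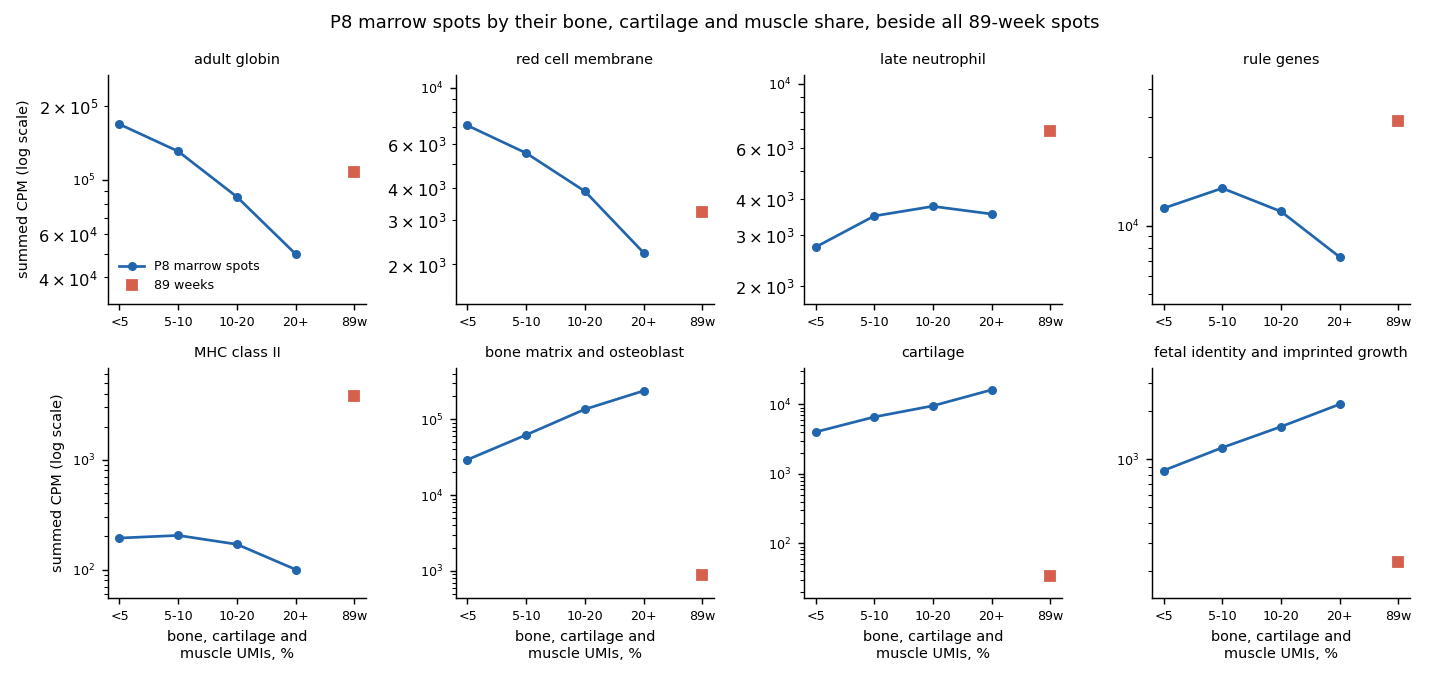
Summed CPM (log scale) of 8 gene lists in P8 marrow spots grouped by the share of their UMIs on bone, cartilage and muscle genes (under 5%, 5 to 10%, 10 to 20% and over 20%, in 60, 69, 122 and 66 spots), with the 89-week section as a square. Adult globin goes from 168390 CPM in the cleanest to 49808 CPM in the most bone-rich P8 spots, across the 89-week level of 107944 CPM, while MHC class II lies between 100.0 and 205 CPM at P8 against 3792 CPM at 89 weeks. The bone matrix and cartilage lists help to set the groups, so their order is built in.

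Levels within the P8 marrow varied with the share of bone, cartilage and muscle UMIs. From the 60 spots under 5% bone, cartilage and muscle to the 66 over 20%, adult globin went from 168390 to 49808 CPM and red cell membrane genes from 7082 to 2223 CPM. The rule genes also stood lower in the latter, at 7260 against 11910 CPM, with a peak of 14601 CPM in spots of 5 to 10%, and S100a8 stood at 1429 against 2363 CPM and Stfa1 at 457 against 817 CPM. The late neutrophil list, which holds Mmp9, stood at 2723 CPM in the former and 3546 CPM in the latter. Cell cycle genes went from 7811 to 3014 CPM and osteoclast genes from 6586 to 11537 CPM. These spots share 1 section, so the order is a description. The totals include the bone, cartilage and muscle UMIs, so a higher share by itself lowers the CPM of other genes.

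Macrophage genes, among them those of the erythroblastic island, went in both directions (4 higher and 5 lower of 20, median 0.15). These counts lay near the shares of all genes tested, 12.4% higher and 22.1% lower. The C1q subunits stood apart from each other. C1qa stood at 80.5 CPM at P8 (74.9 to 86.4) and 92.8 CPM at 89 weeks (86.5 to 99.6), C1qb at 80.0 and 35.2 CPM, and C1qc at 83.5 and 47.0 CPM. Over the 21 alternatives the log2 ratio of C1qa ran from 0.02 to 0.36, that of C1qb from -1.53 to -0.94 and that of C1qc from -1.14 to -0.57. Among the higher or near-even genes, Hmox1, which breaks down heme, stood at 45.7 and 245 CPM, the haemoglobin scavenger receptor Cd163 at 2.94 and 20.4 CPM, and the iron exporter Slc40a1 at 64.0 and 111 CPM. Cd5l, a secreted macrophage protein, stood at 6.71 and 59.0 CPM. The adhesion gene Vcam1 stood at 80.1 and 84.5 CPM. Lower genes were Spic, the factor of red pulp and iron-recycling macrophages (9.86 and 3.32 CPM), the efferocytosis receptor Timd4 (7.45 and 2.13 CPM), Maf (94.6 and 31.5 CPM) and Igf1 (108 and 14.3 CPM), the last at 171 CPM in the other P8 spots.

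Megakaryocyte and platelet genes were higher at 89 weeks in 14 of 18 and lower in none, with a median of 1.48. Against the cleaner P8 spots 9 were higher and the median was 1.00. Pf4, a platelet chemokine, stood at 576 and 940 CPM, Itga2b, the fibrinogen receptor chain, at 66.3 and 258 CPM, Selp, P-selectin, at 5.56 and 41.0 CPM, and Clec1b, the podoplanin receptor, at 10.5 and 103 CPM. Both sections were patchy for Pf4: the richest 15 of 317 spots held 35.1% of its counts at P8 and the richest 46 of 932 held 22.2% at 89 weeks.

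Stem cell, stromal and fat genes also went in both directions, as did all genes tested, of which 12.4% were higher and 22.1% lower. The stem and stromal counts lay near these shares. Of 16 stem and progenitor genes 3 were higher and 4 lower, with a median of -0.03 that took the other sign in 6 of 21 alternatives. Kit, the stem cell factor receptor, stood at 43.5 and 56.9 CPM and Cd34, which vessels also carry, at 47.1 and 24.2 CPM. Slamf1 (CD150) held 18 counts at P8 and 116 at 89 weeks. Hoxa10 (26.0 and 1.30 CPM) and Sox4 (48.2 and 4.03 CPM) were lower, and both were higher in the other P8 spots (57.1 and 76.3 CPM) than in the P8 marrow spots. Of 17 stromal genes 2 were higher and 4 lower (median -0.44). Cxcl12, the chemokine that holds stem cells in marrow, stood at 373 and 237 CPM, Lepr, a marker of the stroma that makes it, at 26.6 and 42.4 CPM, and Pdgfra at 60.3 and 7.47 CPM. Of 13 adipocyte genes 1 was higher and 4 lower, with the fat hormone adiponectin (Adipoq) at 20.6 and 20.2 CPM and the lipid droplet protein Plin1 at 5.24 and 1.30 CPM. Leptin (Lep) held 0 and 3 counts. Endothelial genes were lower in 10 of 18, with the junction protein Cdh5 at 62.7 and 14.7 CPM, and 16 of the 18 were higher in the other P8 spots than in the P8 marrow spots. The exception on the higher side was Stab2, a scavenger receptor of sinusoids, at 31.9 and 65.9 CPM.

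Genes of bone, cartilage and muscle gave the lowest list medians. Bone had been separated from the 89-week marrow before embedding, and that step and age cannot be told apart. Lower at 89 weeks were 20 of 21 bone matrix genes, 16 of 16 cartilage genes and 15 of 15 muscle genes. Col1a1, the main collagen of bone, stood at 41567 and 198 CPM (72858 CPM in the other P8 spots) and Col2a1, that of cartilage, at 4218 and 13.3 CPM (43980 CPM in the other P8 spots). Neonatal myosin Myh8 held 2562 counts at P8 and none at 89 weeks, at least 755-fold lower against a floor of 3 counts. The 89-week remnant was local: the richest 46 spots held 73.1% of Col1a1 counts, and 545 of 932 spots held none. Runx2 was the member not called, at 103 and 63.5 CPM. Of 13 osteoclast genes 9 were lower, with the protease Ctsk at 2430 and 21.2 CPM. Fetal and imprinted growth genes were lower in 15 of 18, with Igf2 at 229 and 1.90 CPM and Dlk1 at 130 and 0.119 CPM (1 count), but 14 of the 18 were higher in the other P8 spots, where Igf2 stood at 1286 and Dlk1 at 1188 CPM. Igf2bp3, an RNA-binding protein of fetal blood cells, held 161 counts at P8 and 0 at 89 weeks and stood at 13.5 CPM in the other P8 spots against 16.9 CPM in P8 marrow. Lin28a, a fetal regulator, stood higher at 89 weeks (10.9 and 26.3 CPM).

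Cell cycle genes were close between the ages. Of 31 tested none was higher and 5 were lower, against 12.4% and 22.1% of all genes tested, with a median log2 ratio of -0.43. Mki67, a marker of cycling cells, stood at 897 and 773 CPM and Ccna2 at 506 and 456 CPM, whereas the mitotic genes Plk1 (85.5 and 30.6 CPM) and Cdc20 (73.2 and 27.5 CPM) and thymidylate synthase Tyms (151 and 58.2 CPM) were lower. Against the cleaner P8 spots 13 of 31 were lower and the median was -0.66, and with all P8 spots it was 0.15. Immediate early and heat shock genes were higher in 3 and lower in 3 of 16, with Fos at 11.6 and 7.23 CPM, Jun at 32.4 and 16.8 CPM and Hsp90aa1 at 157 and 462 CPM.

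**Figure D5:**
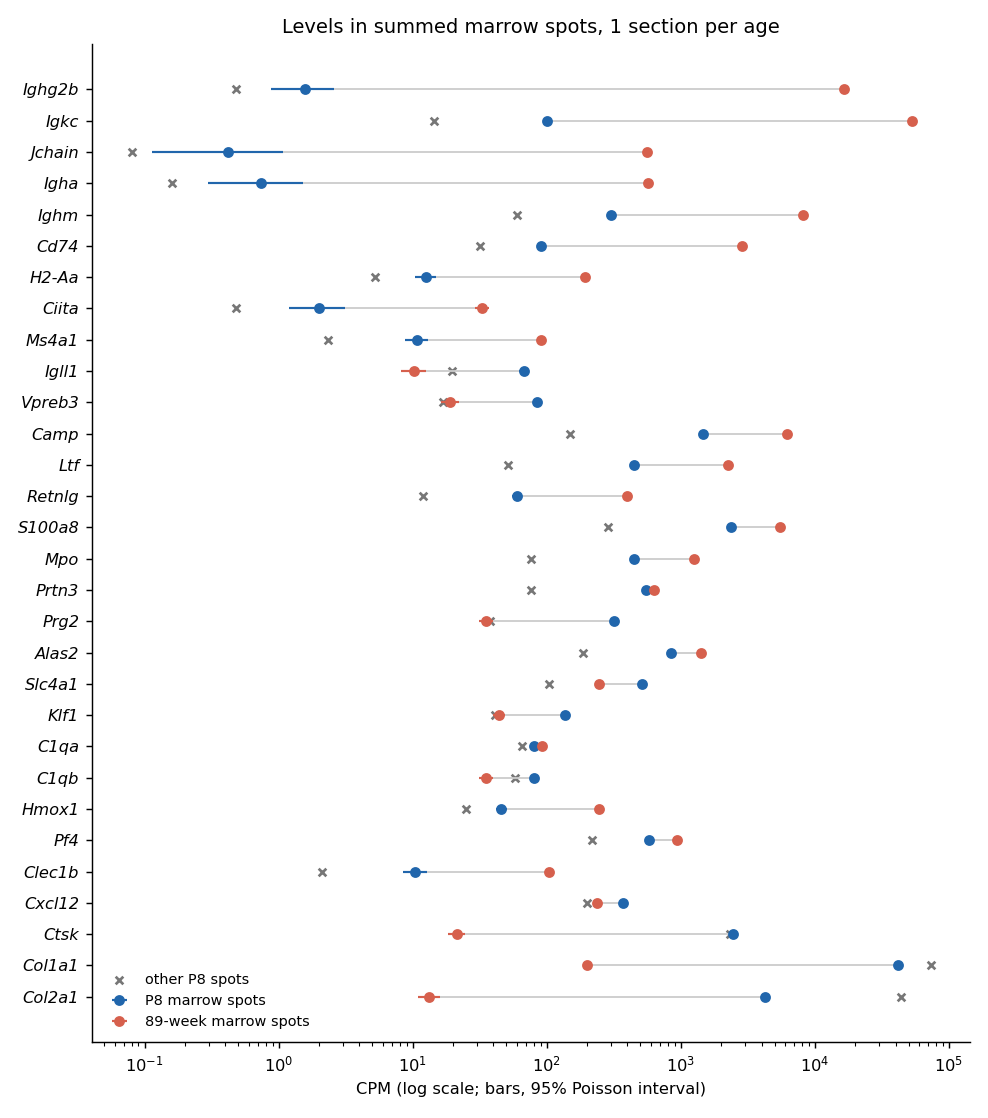
Levels of selected genes in CPM on a log scale in the summed P8 marrow spots (blue), the 89-week marrow spots (red) and the other P8 spots (grey crosses), with bars for the 95% Poisson interval of 1 section each. Ighg2b runs from 1.57 to 16454 CPM and Igkc from 100.1 to 52702 CPM, while Col1a1 and Col2a1 run the other way and lie higher still in the other P8 spots.

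The feature table touches some of these values. It marks 304 of 32589 rows as deprecated, and these rows held 0.639% of UMIs at P8 and 0.0308% at 89 weeks. Of 89 such rows tested, 87 were lower and 2 higher at 89 weeks, and 4 of the 15 largest lower ratios among genes of at least 100 CPM were such rows. Where a deprecated row carries the same identifier as a gene, joining the rows moved the gene. Epor, the erythropoietin receptor, went from a log2 ratio of 1.15 to -0.21, and Cd63, a granule and lysosome protein, from 2.15 to -1.16. The class I gene H2-K1 went from 5.25 to 2.03, Clec1b from 3.30 to 2.47 and the plasma cell factor Irf4 from 2.14 to 1.03. The basophil protease Prss34 held no count on its own row in either section, and with the deprecated row it stood at 36.6 CPM at P8 and 184 CPM at 89 weeks. Of the genes called, 179 of the 1461 higher stood higher in every later-header section, and 180 of the 2593 lower in every older-header one. Over all 11754 genes tested, such genes numbered 277 (2.36%) and 271 (2.31%). So 179 of the 277 were called higher and 180 of the 271 lower, against 12.4% and 22.1% of all genes tested. The antibody and MHC class II genes named above overlapped between headers, Igkc reaching 26065 CPM in a section with the older header. The older-header sections are fetal livers, the P8 marrow and an adult spleen, so this overlap mixes tissue and header. The part of the header in these genes was not tested.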

How the data were processed

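Spot by gene counts (UMIs) were deposited by the authors as unnormalized matrices for probe-based Visium libraries, mapped to mm10 per the submitters' processing notes. The headers name Cell Ranger 4 for P8, Space Ranger 2.1.1 for 89 weeks and Space Ranger 3.1.2 for the EDTA-decalcified section. In-tissue spots with at least 1000 genes and at least 0.5% of UMIs on the 10 rule genes were kept, and raw counts were summed per section (9534780 and 8434382 UMIs) and scaled to CPM with Python 3.11.15, numpy 2.4.6, scipy 1.17.1 and pandas 2.3.3. Levels carry exact 95% Poisson intervals and ratios exact conditional intervals, with a floor of 3 counts per section where a gene held 0. A spot holds several cells, spots of 1 section are not replicates, and no doublet step was run. Genes needed at least 50 counts in total and were called at 2-fold, with no p-value. The interval code was tested on simulated data. TMM factors (edgeR 4.0.16, R 4.3.3) and size factors (DESeq2 1.42.0) served only as alternative scalings.

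Named were at most 6 genes of each of 33 lists (3 of highest mean CPM and 3 of largest ratio), all globin, rule and sex-linked genes, C1qa, C1qb, C1qc, and the 15 largest ratios in each direction at 100 CPM or more. Other genes were chosen after their values were seen. The members and lists were chosen with earlier results of these data known. Promoters came from a RefSeq table (GRCm38.p6). Some genes of the lists are not reported here.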

Additional observations from a re-analysis of the deposited data

Results flagged for a closer look

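Signal stood in data that the comparison does not rest on. Rows marked as deprecated in the feature table held 60961 UMIs in the P8 marrow spots and 2594 in the 89-week ones. In the 15 passing spots of the EDTA-decalcified section, which has no partner of its age, Igkc held 134 counts and Cd74 held 43 counts, both above the limit of 3 that a count of 0 allows. Outside the tissue outline of the 89-week section, Igkc held 387596 counts, or 46197 CPM, and it lay between 44821 and 47403 CPM in every distance band from the tissue. Off-tissue Igkc in the P8 section stood at 53.2 CPM.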

How the results depend on the processing

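No paired analysis was possible because each age has 1 section, and for the same reason no replicate could be left out. Of 23 alternatives, 5 were chosen after seeing the data. The 2593 lower genes became 1378 with a rule share of 2%, 4003 with all in-tissue spots, 946 with spots thinned to 2000 UMIs, 1551 with a minimum of 200 counts, 4751 with a minimum of 1 count, 1217 at a fold of 4 and 1417 with P8 spots under 5% bone, cartilage and muscle. The 1461 higher genes became 3417 with a minimum of 1 count, 943 with the interval wholly past 2-fold and 382 at a fold of 4. Higher genes were 36.0% of calls, 47.9% with a rule share of 2%, 53.5% with P8 spots under 5%, 54.1% when thinned and 27.4% with totals free of the bone lists. The median log2 ratio of all genes, -0.21, was -0.08 with TMM factors, -0.10 with size factors and -0.37 with totals free of the bone lists. Joining deprecated rows reversed Cd63 (-1.16) and Epor (-0.21). Of 172 named genes, 122 were past 2-fold. Of these, 96 were so in every alternative other than the fold of 4 and the interval wholly past 2-fold, which were left out of this count. The ratio was used even where a gene fell below the filter of an alternative. Limits of 2% and 1% on bone, cartilage and muscle UMIs left 0 P8 spots and were not run. The causes were not tested. Thinning also moved the median of all genes to 0.01, but it left only 6648 genes tested. The median was -0.15 with a minimum of 200 counts and -0.02 with P8 spots under 5%. The part of depth in these shifts was not tested.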

Other observations

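Of the genes tested, 126 held 0 counts at 89 weeks and 3 held 0 counts at P8. Mitochondrially encoded genes, 13 in the list, held 0 counts in both sections. Within the granulocyte lineage, S100a8 made 0.509 counts per S100a9 count at P8, 0.717 at 89 weeks and 0.694 in the EDTA-decalcified spots. Red cell membrane genes made 0.0431 counts per globin count at P8, 0.0299 at 89 weeks and 0.0555 in the EDTA-decalcified spots.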
